A study of Rattus norvegicus with 12 samples.

Results

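Endothelial marker genes were examined in cultures of heart muscle cells to see how far RNA of vessel-lining cells was present and whether it differed between cultures given different forms of KAT6A. The members are 10 genes picked by symbol: Pecam1, Cdh5, Cldn5, Kdr, Flt1, Tek, Tie1, Vwf, Egfl7 and Emcn. Of these, 9 had a row among the 32883 genes of the count table, and 8 had reads and passed the filter on low counts. No row carried the symbol Pecam1, which was not analysed here. Cldn5, a claudin of endothelial tight junctions, was listed at 0 reads in all 12 libraries. For counting error only, this allows at most 0.118 to 0.156 CPM (counts scaled to a common library total), depending on the library. Whether the 0 comes from the annotation or from the cells was not tested, so it is not read as absence of the RNA.

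The cells were primary ventricular cardiomyocytes of newborn Rattus norvegicus. All 4 groups received an adenovirus and were harvested 2 days later, so no group was free of virus. LacZ carried a bacterial gene as control cargo, WT carried wild-type human KAT6A, K815R an acetylation-resistant mutant and K815Q an acetylation-mimetic mutant of it, with 3 libraries in each group. The labels do not say whether the 3 libraries of a group came from separate cultures or isolations, so p-values measure only the spread between these libraries. The vector's promoter, the viral dose and the share of cells that took up the virus are not given in the sources used here.

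Endothelial cells line blood vessels and the inner surface of the heart, and a preparation of ventricular cells can hold some of them. Their junctions are held by VE-cadherin (Cdh5) and by claudin-5, and their growth and survival depend on vascular endothelial growth factors (VEGF), which signal through the receptors Kdr (VEGFR2) and Flt1 (VEGFR1). Angiopoietins act through the receptor Tek (Tie2), which pairs with its relative Tie1. Vwf, Egfl7 and Emcn encode a clotting protein, a secreted matrix protein and a surface sialomucin of these cells. In RNA from whole cultures, fewer endothelial cells and less of an RNA per cell cannot be told apart.

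Gene counts per library ran from 19102048 to 25451686. The gene delivered was read first as a check of the labels: Kat6a stood at 45.2 to 53.5 CPM in LacZ, 81.9 to 106 in WT, 101 to 122 in K815R, with 43.3 to 49.9 in the libraries labelled K815Q. The last group thus did not show the raised Kat6a that its label calls for, so these are called the libraries labelled K815Q, and any direction named for them depends on that label. Prkaa2, which encodes a catalytic subunit of the energy sensor AMPK and is not named in the labels, stood at 54.7 to 72.6 CPM in LacZ, 78.1 to 95.4 in K815R, 435 to 633 in WT and 1133 to 1231 under the K815Q label. In WT, Kat6a and Prkaa2 were thus high in the same 3 libraries, and differences of WT that go with the one or the other cannot be told apart. Summed over 10 cardiomyocyte markers the level was 46180 to 49140 CPM in LacZ and 47700 to 52240 in the other 9 libraries, so muscle transcripts were present throughout, as were those of 10 fibroblast markers at 11000 to 12840 CPM. CPM here is not divided by gene length, and levels of different genes are not compared with each other.

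RefSeq promoter entries (build GRCr8) were found for 6 of the 10 members, namely Kdr, Flt1, Emcn, Tie1, Egfl7 and Cldn5. Endothelial genes are classically bound by ETS transcription factors, whose core motif is GGAA, read on the other strand as TTCC. The 250 bases before the start held this core in 6 of 7 member entries (Egfl7 has 2 starts), against 93.2% of all 33469 promoter entries searched the same way. Of these bases, 0 lay ahead of the annotated gene for Flt1 and both Egfl7 entries, so their matches lie within it. For Kdr, Emcn and Tie1, 218, 156 and 184 did. The longer form GGAAG, which contains GGAA and was also read on both strands, was in 5 of 7 entries and in 63.3% of all. Below are the bases ahead of the annotated gene for Kdr, Tie1, Emcn and Cldn5, the member entries that have such bases. Capitals mark each GGAA or TTCC, and the sequences run 5′ to 3′ on the gene's strand.
Kdr, chr14:32571813-32572030, plus strand: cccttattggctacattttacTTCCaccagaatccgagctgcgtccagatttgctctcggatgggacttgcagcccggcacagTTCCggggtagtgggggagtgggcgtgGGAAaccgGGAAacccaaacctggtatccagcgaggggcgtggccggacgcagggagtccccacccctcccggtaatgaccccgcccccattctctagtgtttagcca
Tie1, chr5:137305048-137305231, minus strand: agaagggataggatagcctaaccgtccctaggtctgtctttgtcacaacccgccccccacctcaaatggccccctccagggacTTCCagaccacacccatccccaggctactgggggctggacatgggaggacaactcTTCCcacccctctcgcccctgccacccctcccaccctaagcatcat
Emcn, chr2:228564289-228564444, plus strand: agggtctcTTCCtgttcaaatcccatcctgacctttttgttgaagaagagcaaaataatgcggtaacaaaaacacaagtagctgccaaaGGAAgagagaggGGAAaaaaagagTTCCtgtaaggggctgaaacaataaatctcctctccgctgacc
Cldn5, chr11:95718599-95718848, minus strand: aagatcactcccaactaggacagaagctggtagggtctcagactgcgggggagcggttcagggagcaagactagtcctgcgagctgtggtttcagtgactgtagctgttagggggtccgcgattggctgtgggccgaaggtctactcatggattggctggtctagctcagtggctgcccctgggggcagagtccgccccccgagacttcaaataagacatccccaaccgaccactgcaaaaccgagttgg

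No endothelial marker passed the test in any comparison. The 8 markers with reads were tested in 6 pairwise comparisons of the groups with the quasi-likelihood method of edgeR. Benjamini-Hochberg adjustment of p ran over 14063 genes, and 0 of 48 results had an adjusted p under 0.05. At an unadjusted p under 0.05 there were 7 of 48, all of them in Flt1 or Vwf, and DESeq2 called 2 of 48, both in Vwf. Over all genes an unadjusted p under 0.05 was reached by 19.1%, 13.8% and 24.2% in WT, K815R and labelled K815Q against LacZ. It was reached by 13.8% and 14.4% in K815R and labelled K815Q against WT, and by 11.4% between K815R and labelled K815Q. Over all genes, 5.34% were called in WT against LacZ, 2.47% in K815R against LacZ, 7.85% in labelled K815Q against LacZ, 2.2% in K815R against WT, 1.07% in labelled K815Q against WT and 0.363% in K815R against labelled K815Q. Tested for a change anywhere among the 4 groups, edgeR called 0 of 8 markers and 8.13% of all genes, and DESeq2 called 2 of 8. The shares of all genes that DESeq2 called are not given here. By edgeR 2 of 8 had an unadjusted p under 0.05.

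Against LacZ, the fitted log2 fold changes of the 8 markers lay between -0.48 and 0.21, and their 95% intervals reached from -0.79 to 0.62. In WT, 4 of 8 had a value above 0 and 4 below, with a median of 0.01, beside 0.01 over all genes. In K815R, 8 of 8 lay above 0, with a median of 0.08 against 0.00 over all genes, and 4 of these (Tek, Flt1, Vwf and Egfl7) changed sign when 1 library or another was left out. In the libraries labelled K815Q, 6 of 8 lay below 0, with a median of -0.11 against 0.01 over all genes. Between K815R and labelled K815Q, 8 of 8 were higher in K815R (median 0.20, all genes 0.00), and since 0 of 8 passed the test these are directions of small values only, of which those of Tek and Egfl7 changed sign when a library was left out. Over all genes 47.6%, 48.8% and 48.3% lay below 0 in WT, K815R and labelled K815Q against LacZ, and 50.2% in K815R against labelled K815Q. The comparisons share the LacZ libraries or each other's libraries and are not independent.

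**Figure D1:**
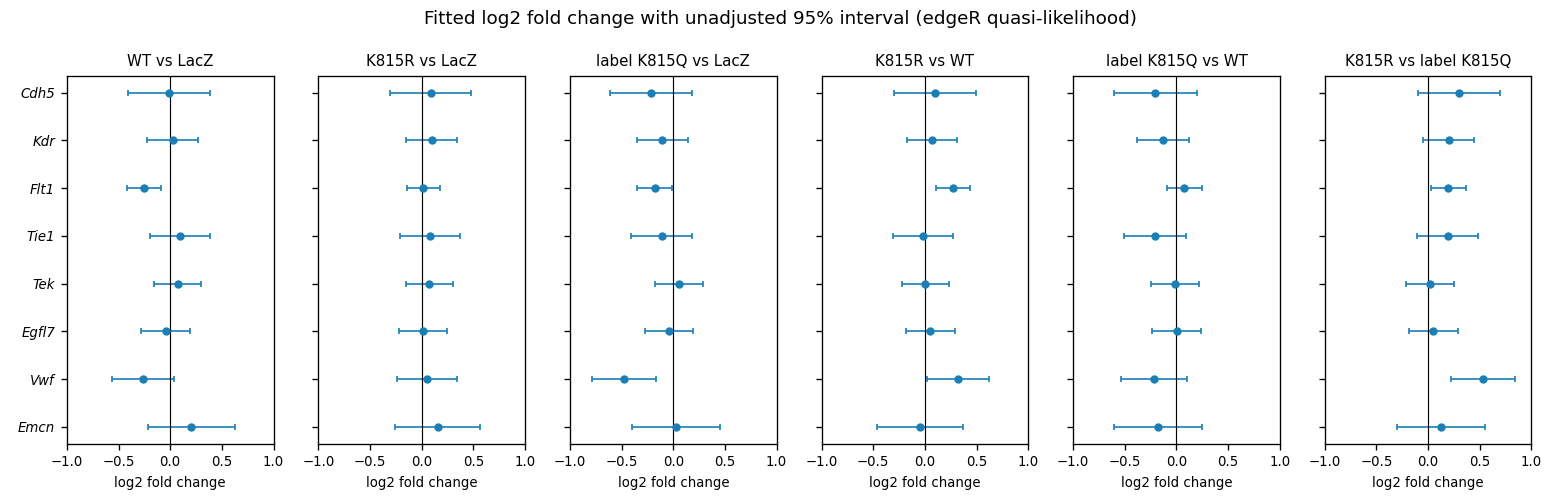
Fitted log2 fold change (x axis, first group minus second) of the 8 markers with reads (rows) in each of the 6 comparisons, with the unadjusted 95% interval as bars. Most intervals cross 0; those of Flt1 and Vwf that do not are the 7 with an unadjusted p under 0.05, and none passed after adjustment.

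VE-cadherin, the adhesion molecule of endothelial junctions, varied more among the libraries of WT and of labelled K815Q than between the group means. Cdh5 (ENSRNOG00000013324) stood at 54.0, 51.2 and 49.6 CPM in LacZ replicates 1 to 3, at 49.7, 60.6 and 43.3 in WT, at 50.9, 60.6 and 52.4 in K815R and, under the K815Q label, 40.2, 56.7 and 36.3. The 4 groups overlapped, and the lowest values were labelled K815Q replicates 1 and 3. Means ran from high to low in the order K815R, LacZ, WT and labelled K815Q, with no neighbouring pair further apart than the spread in WT or labelled K815Q. In the latter the mean was 44.4 ± 10.8 CPM against 51.6 ± 2.23 in LacZ (SD, n = 3 each), a log2 fold change of -0.22 (SE 0.175, edgeR adjusted p 0.50). The 95% interval of this difference ran from -0.62 to 0.18.

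The main signalling receptor for VEGF-A, Kdr (ENSRNOG00000046829), was nearly level across groups. It stood at 51.8, 59.2 and 49.3 CPM in LacZ, 49.8, 60.8 and 52.6 in WT, 56.6, 62.6 and 51.6 in K815R and, under the K815Q label, 49.2, 56.8 and 42.7. Replicate 2 was the highest of its group each time, and every pair of groups overlapped. The lowest group mean was 49.6 ± 7.05 CPM in labelled K815Q and the highest 56.9 ± 5.48 in K815R (SD, n = 3 each), which differed by a log2 fold change of 0.20 for K815R (SE 0.113, 95% interval -0.05 to 0.45, edgeR adjusted p 0.546).

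Flt1 (ENSRNOG00000000940) encodes the other VEGF receptor, which binds the ligand tightly and also exists as a soluble decoy. Counts per gene do not separate the soluble from the membrane form. It stood at 33.7, 34.1 and 29.9 CPM in LacZ, at 26.8, 27.3 and 27.8 in WT, at 31.9, 35.7 and 31.0 in K815R and, under the K815Q label, 26.9, 32.9 and 26.4. All 3 WT libraries lay below all LacZ and all K815R libraries, while the libraries labelled K815Q reached into both the WT and the LacZ range. Flt1 in WT against LacZ was 1 of 8 markers whose groups did not overlap, where 24.6% of all genes did not. The WT mean was 27.3 ± 0.512 CPM against 32.6 ± 2.29 in LacZ (SD, n = 3 each), a log2 fold change of -0.26 (SE 0.0804, 95% interval -0.42 to -0.09, unadjusted p 0.00428, edgeR adjusted p 0.0665). For K815R against WT the value was 0.27 (SE 0.0807, 95% interval 0.10 to 0.44, adjusted p 0.0871). Both values stood close to the threshold. The first was called without LacZ replicate 3 (-0.32, adjusted p 0.0418), without K815R replicate 2 (adjusted p 0.0487), without labelled K815Q replicate 2 (adjusted p 0.0327) and when those 6 libraries were fitted alone (adjusted p 0.0326). The second was called without labelled K815Q replicate 2 (adjusted p 0.0422) and when those 6 libraries were fitted alone (adjusted p 0.0495), from edgeR.

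The angiopoietin receptor Tek (ENSRNOG00000008587) was nearly level between groups and most variable within K815R. It stood at 8.21, 8.20 and 8.72 CPM in LacZ, 8.77, 9.09 and 8.55 in WT, 10.1, 9.26 and 7.17 in K815R and, under the K815Q label, 8.62, 9.34 and 8.12. Both the highest and the lowest of the 12 values were K815R libraries. Group means differed by at most 1.06 times, and the log2 fold change against LacZ lay between 0.05 and 0.07 in the 3 groups, with edgeR adjusted p of 0.789, 0.833 and 0.81.

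Tie1 (ENSRNOG00000020173), the partner of Tek with no well-settled ligand of its own, stood at 30.7, 29.0 and 27.1 CPM in LacZ, 26.7, 38.2 and 27.8 in WT, 28.0, 33.5 and 29.9 in K815R and, under the K815Q label, 25.7, 30.7 and 23.8. WT replicate 2 stood above the other 11 libraries and set the WT mean of 30.9 ± 6.37 CPM (SD, n = 3), the highest of the groups. Without it, the log2 fold change of WT against LacZ went from 0.09 to -0.09 (edgeR adjusted p 0.766 and 0.749).

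Von Willebrand factor, the clotting protein that endothelial cells store in granules and release, had the widest spread of group means. Vwf (ENSRNOG00000019689) stood at 13.7, 13.8 and 11.2 CPM in LacZ, at 10.1, 10.3 and 11.7 in WT, at 13.6, 14.7 and 11.8 in K815R and, under the K815Q label, 7.95, 12.0 and 7.71. Labelled K815Q replicates 1 and 3 were the lowest of all 12 and replicate 2 lay within the LacZ range, so these groups overlapped. The pair without overlap was WT and K815R, whose nearest libraries stood at 11.7 and 11.8 CPM. Flt1 and Vwf were the 2 of 8 markers for which these groups lay apart, where 19% of all genes did, and in the other 4 comparisons the groups overlapped for all 8.

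The mean of Vwf was 9.23 ± 2.43 CPM in the libraries labelled K815Q against 12.9 ± 1.46 in LacZ and 13.4 ± 1.49 in K815R (SD, n = 3 each). The log2 fold change of labelled K815Q against LacZ was -0.48 (SE 0.146, 95% interval -0.79 to -0.17, unadjusted p 0.00461, edgeR adjusted p 0.0554). For K815R against labelled K815Q the value was 0.53 (SE 0.146, 95% interval 0.22 to 0.84, adjusted p 0.139), and against WT it was 0.32 (SE 0.143, adjusted p 0.333). Whether the values for labelled K815Q were called turned both on 1 library and on the method. Without labelled K815Q replicate 2 they were -0.72 against LacZ (adjusted p 0.00141) and 0.77 for K815R over labelled K815Q (adjusted p 0.00339), and Flt1 was then called against LacZ as well (-0.29, adjusted p 0.0287, from edgeR). DESeq2 called Vwf with all 12 libraries in the same 2 comparisons (adjusted p 0.0182 and 0.0447), as did edgeR without a filter on low counts (adjusted p 0.00157 and 0.00193). Vwf is also a product of megakaryocytes and platelets. Of 8 markers of those cells, Pf4 and Itga2b passed the filter and the other 6 stood at or below 0.227 CPM in every library. Their summed level was 23.5 to 27.0 CPM in LacZ and 30.5 to 34.3 in the other 9 libraries. Nearly all of it was Pf4, which was called higher than LacZ in all 3 groups. Itga2b went the other way, with log2 fold changes of -0.13, -0.13 and -0.18 in WT, K815R and labelled K815Q, none called. The rise of the sum thus rested on Pf4 alone, and the part of these cells in the Vwf values was not tested.

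The secreted matrix protein Egfl7 (ENSRNOG00000019388), whose gene hosts the endothelial microRNA miR-126, stood at 22.3, 21.8 and 16.9 CPM in LacZ, 17.4, 23.1 and 18.6 in WT, 20.2, 20.6 and 20.5 in K815R and, under the K815Q label, 18.1, 22.0 and 19.0. The K815R libraries lay close together, and the lowest value of all was LacZ replicate 3. Group means differed by at most 1.04 times, with log2 fold changes against LacZ of -0.04 in WT, 0.01 in K815R and -0.04 in labelled K815Q (edgeR adjusted p 0.885, 0.984 and 0.86).

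Endomucin, a surface mucin of capillaries and veins that hinders leukocyte attachment, again turned on 1 library. Emcn (ENSRNOG00000022910) stood at 9.63, 9.18 and 8.44 CPM in LacZ, 8.77, 14.5 and 8.26 in WT, 9.27, 10.2 and 10.8 in K815R and, under the K815Q label, 9.04, 11.1 and 7.60. WT replicate 2 was the highest of the 12 by a wide margin, while the other WT libraries lay within or below the LacZ range. The log2 fold change of WT against LacZ was 0.20 (SE 0.192, edgeR adjusted p 0.63) and -0.09 without that library.

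**Figure D2:**
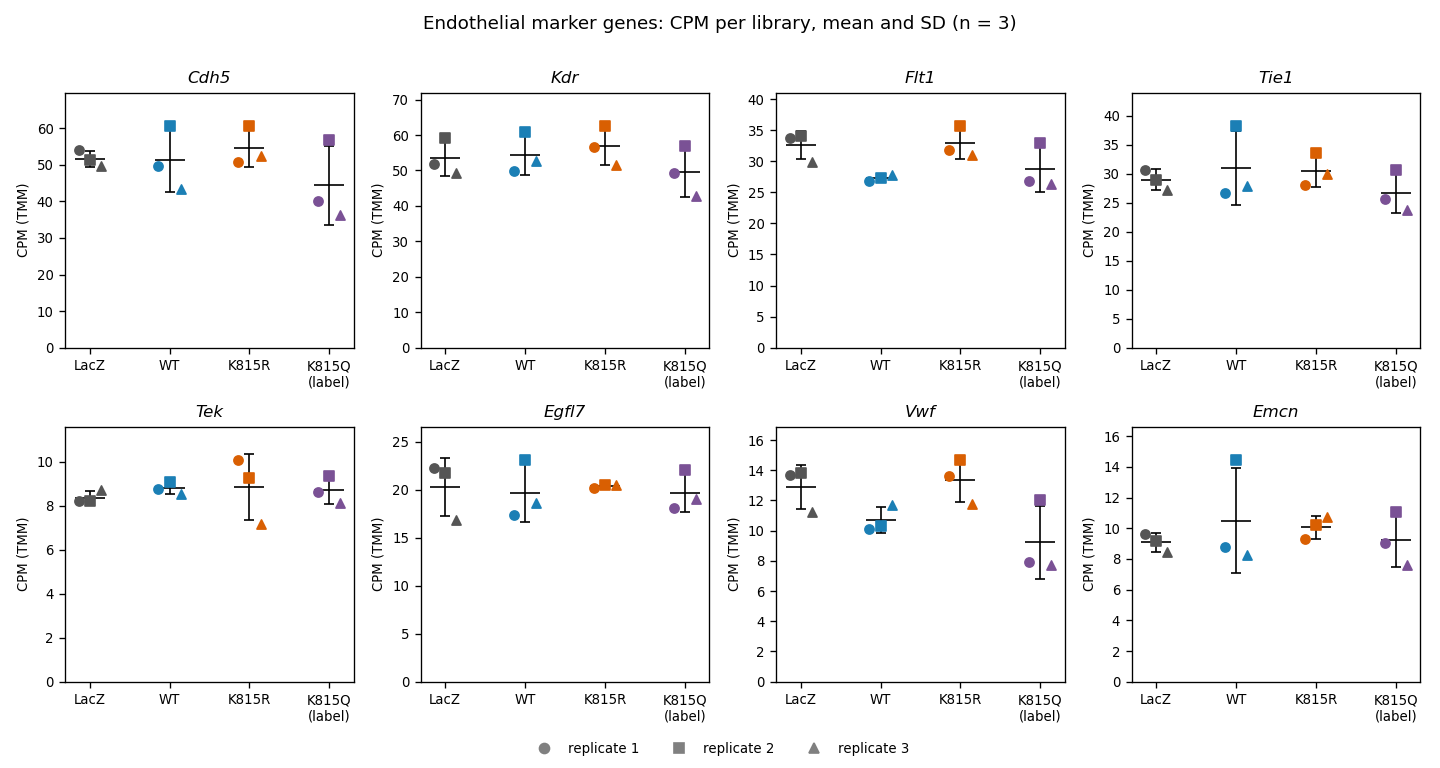
TMM-scaled CPM (y axis, from 0) of the 8 markers with reads in each of the 12 libraries, by group (x axis), with 1 symbol per replicate number; the bar and whiskers are the group mean and SD (n = 3). The WT libraries of Flt1 sit at 26.8 to 27.8 CPM below all LacZ and K815R libraries, and replicate 2 stands high in several panels, as in Emcn and Tie1 of WT.

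The markers moved together from library to library, and the sums spread more widely within WT and within labelled K815Q than the group means did. The summed CPM of the 8 markers was 224, 226 and 201 in LacZ, 198, 244 and 199 in WT, 221, 247 and 215 in K815R and, under the K815Q label, 186, 232 and 172. Replicate 2 had the highest sum in each of the 4 groups, by a small margin in LacZ. In WT it was also the highest of its group for the summed markers of fibroblasts (12040 CPM), smooth muscle and pericytes (5364) and mesothelium (72.8), and in K815R for those of smooth muscle and pericytes (5477) and mesothelium (70.2). Labelled K815Q replicate 3 was the lowest of its group for the same 3 lists (11940, 4997 and 66.7 CPM). Elsewhere replicate 2 went the other way. It was the lowest in LacZ for smooth muscle and pericytes (4776) and mesothelium (67.7), and the lowest in K815R for fibroblasts (11100). Labelled K815Q replicate 2 was the highest for fibroblasts (12840) but not for smooth muscle and pericytes (5075) or mesothelium (69.8). The part of these cells in the shared variation was not tested. Replicate 2 was the highest library of the endothelial markers for 23 of 32 combinations of a gene and a group, and for 8 of 8 genes in labelled K815Q. In LacZ it was the highest for 3 of 8 genes and replicate 1 for 4. As the genes moved together, these combinations are not independent. Labelled K815Q replicate 3 was the lowest of all 12 libraries for 6 of 8 genes. The mean sum was highest in K815R at 228 ± 17.1, followed by LacZ at 217 ± 13.9, WT at 214 ± 26.4 and labelled K815Q at 196 ± 31.3 (SD, n = 3 each), and every group overlapped with every other.

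Likeness between the genes was described by Pearson's r of log2 CPM over the 12 libraries, which share groups and normalization. All 28 pairs of the 8 markers had an r above 0, with a median of 0.611 and a range from 0.0428 to 0.906. With the group means taken out the median was 0.637, so the shared variation was also present among libraries of 1 group. Set against the mean of the other 7 markers, r was 0.908 for Kdr, 0.903 for Cdh5 and 0.846 for Tie1. Tek followed the others least, with an r of 0.253, and its highest value, K815R replicate 1, was not a library in which the rest were highest. Its lowest, K815R replicate 3, was also the lowest K815R library for Kdr, Flt1 and Vwf. Among 9745 other genes at a mean of at least 5 CPM, those whose pattern was most like the mean of the 8 markers were Dll4 (r = 0.967), Adgrl4 (0.945), Esam (0.944), Arhgef15 (0.939) and Maff (0.931). Dll4, Adgrl4 and Esam also belong to the wider list of vascular genes described next, and none of these 3 was called in a comparison.

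**Figure D3:**
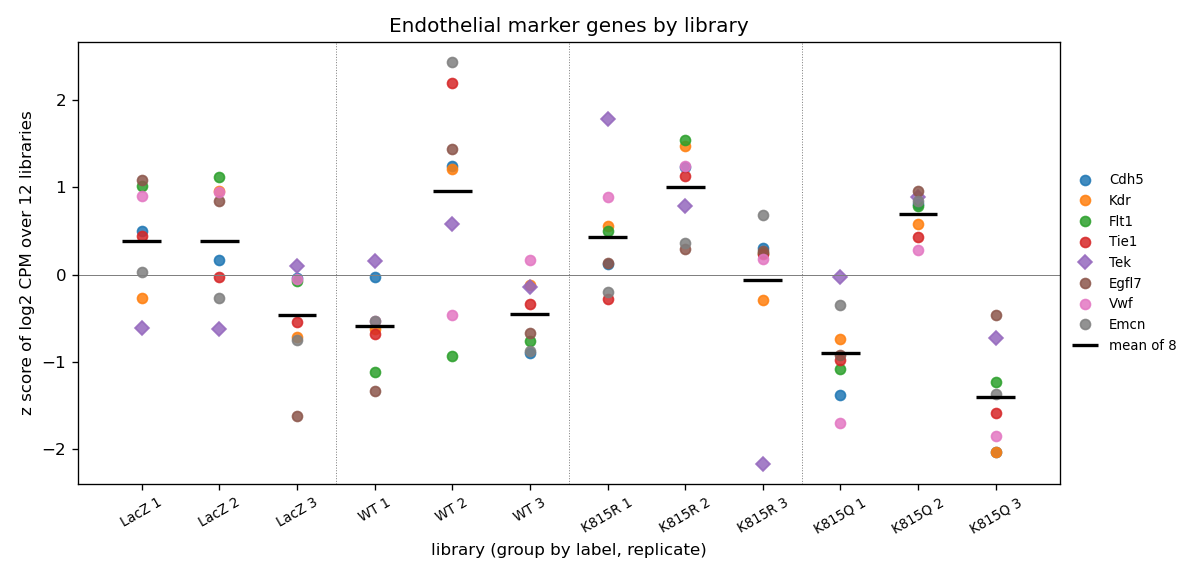
Log2 CPM of each of the 8 markers as a z score over the 12 libraries (y axis), by library (x axis, group and replicate), with a black bar at the mean of the 8. The means of WT, K815R and labelled K815Q replicate 2 lie at 0.96, 1.01 and 0.70, and that of labelled K815Q replicate 3 at -1.41; Tek, drawn as diamonds, departs from the others in K815R replicates 1 and 3.

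A wider list of 88 vascular genes was read beside the markers, of which 84 were tested. It holds further VEGF ligands and receptors, the angiopoietin pathway, junction and surface proteins, the Notch pathway, transcription factors, and lymphatic or endocardial genes, many of which other cardiac cells express too. Against LacZ, WT had 1 of 84 called higher and 5 lower, K815R had 2 and 2, and labelled K815Q had 4 and 3. Higher calls covered 1.95%, 0.74% and 2.87% of all genes and lower calls 3.39%, 1.74% and 4.98%. The medians of the list were -0.03, 0.06 and -0.05. K815R against WT had 7 higher and 0 lower (all genes 1.32% and 0.882%), labelled K815Q against WT 5 higher and 0 lower (0.718% and 0.356%), and K815R against labelled K815Q 1 higher and 0 lower (0.213% and 0.149%). In all, 15 of the 84 genes were called at least once. The share of all genes called at least once is not given here, so this count does not set the list apart from other genes.

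Among 8 further genes of the VEGF family, 3 were called lower than LacZ in WT, 0 in K815R and 1 in labelled K815Q, and none was called higher. Over all genes, lower calls covered 3.39%, 1.74% and 4.98% and higher calls 1.95%, 0.74% and 2.87%. Vegfc, a ligand of lymphatic growth that acts through Flt4, stood at 11.5, 11.8 and 11.2 CPM in LacZ, 7.65, 8.06 and 9.31 in WT, 11.7, 12.3 and 11.3 in K815R and, under the K815Q label, 12.1, 12.8 and 11.5. All WT libraries lay below all 9 others. The log2 fold change of WT against LacZ was -0.46 (SE 0.0935, adjusted p 0.00395), that of K815R over WT 0.49 (adjusted p 0.00611) and that of labelled K815Q over WT 0.54 (edgeR adjusted p 0.00456). Each of these held in all 6 fits that left out 1 library of the groups compared. Vegfd, the other ligand of Flt4, was lower in WT than in LacZ, at -0.44 (adjusted p 0.0253) and above WT in K815R by 0.48 (adjusted p 0.0342), and the co-receptor Nrp2 was lower in WT than in LacZ, at -0.25 (adjusted p 0.0171, from edgeR). Each of these was kept in 2 of 6 such fits. Among 10 fibroblast markers, Pdgfra, a receptor of fibroblasts, moved in the same directions as Vegfc: -0.36 in WT against LacZ (adjusted p 0.00109), 0.54 in K815R over WT (adjusted p 7.62e-05) and 0.30 in labelled K815Q over WT (adjusted p 0.0189, from edgeR). Postn, a matrix protein of activated fibroblasts, went the other way in WT against LacZ (0.35, edgeR adjusted p 0.00104). The rest of the 10 were not called. Of them, Dcn, Lum, Col1a1, Mfap5, Col1a2 and Ddr2 had -0.32, -0.24, -0.16, -0.31, -0.06 and -0.01, while Tcf21 and Col3a1 had 0.28 and 0.02. The summed level of the 10 was 11860 to 12720 CPM in LacZ and 11000 to 12040 in WT, and its part in the values of Vegfc, Vegfd and Nrp2 was not tested.

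Flt4 (VEGFR3), the receptor of lymphatic endothelium and a relative of Kdr and Flt1, stood at 61.8, 69.2 and 61.8 CPM in LacZ, 54.8, 56.9 and 59.0 in WT, 62.8, 79.6 and 65.5 in K815R and, under the K815Q label, 51.9, 54.8 and 49.8. The WT libraries and those labelled K815Q lay below all LacZ and all K815R libraries. Its log2 fold change was -0.30 for labelled K815Q against LacZ (adjusted p 0.0191), 0.41 for K815R over labelled K815Q (adjusted p 0.0168) and 0.29 for K815R over WT (edgeR adjusted p 0.0479). These were kept in 3, 3 and 1 of 6 fits that left out a library. For the same 3 comparisons Flt1 had -0.18, 0.20 and 0.27 and Kdr -0.11, 0.20 and 0.07, none called. Whether these receptors differ from each other in their response was not tested.

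Of 21 transcription factors of the list, 0, 2 and 3 were called higher than LacZ in WT, K815R and labelled K815Q, and 0 lower. Over all genes, higher calls covered 1.95%, 0.74% and 2.87% and lower calls 3.39%, 1.74% and 4.98%. Klf2, a flow-responsive factor of endothelium that macrophages and other cells also express, stood at 9.04, 10.2 and 8.27 CPM in LacZ, 10.0, 10.2 and 10.6 in WT, 13.1, 12.9 and 14.7 in K815R and, under the K815Q label, 14.8, 14.6 and 14.8. The K815R libraries and those labelled K815Q lay above all LacZ and WT libraries. The log2 fold change against LacZ was 0.57 in K815R (SE 0.0895, adjusted p 6.66e-04) and 0.69 in labelled K815Q (SE 0.0899, edgeR adjusted p 4.8e-05), and both held in 6 of 6 fits that left out a library. Its relative Klf4 was higher in labelled K815Q than in WT by 0.45 (adjusted p 0.00517), Foxc1 was higher in K815R than in LacZ by 0.62 (adjusted p 0.00113), and Foxc2 was higher in labelled K815Q than in LacZ by 0.78 (edgeR adjusted p 6.66e-04), each in 6 of 6 such fits. Klf4 in labelled K815Q against LacZ had 0.26 (edgeR adjusted p 0.0453), a call kept in 1 of 6 such fits. Erg, Fli1, Sox7, Sox17, Sox18 and Tal1, picked here by name, were called in no comparison, and their values are not given here. Above 0 against LacZ were 11, 17 and 13 of the 21 factors in WT, K815R and labelled K815Q. The medians were 0.0311, 0.155 and 0.109, beside 0.01, 0.00 and 0.01 over all genes. Against WT, 17 lay above 0 in K815R (median 0.196) and 11 in labelled K815Q (median 0.0241). Of these, 3 and 3 were called higher (all genes 1.32% and 0.718%).

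**Figure D4:**
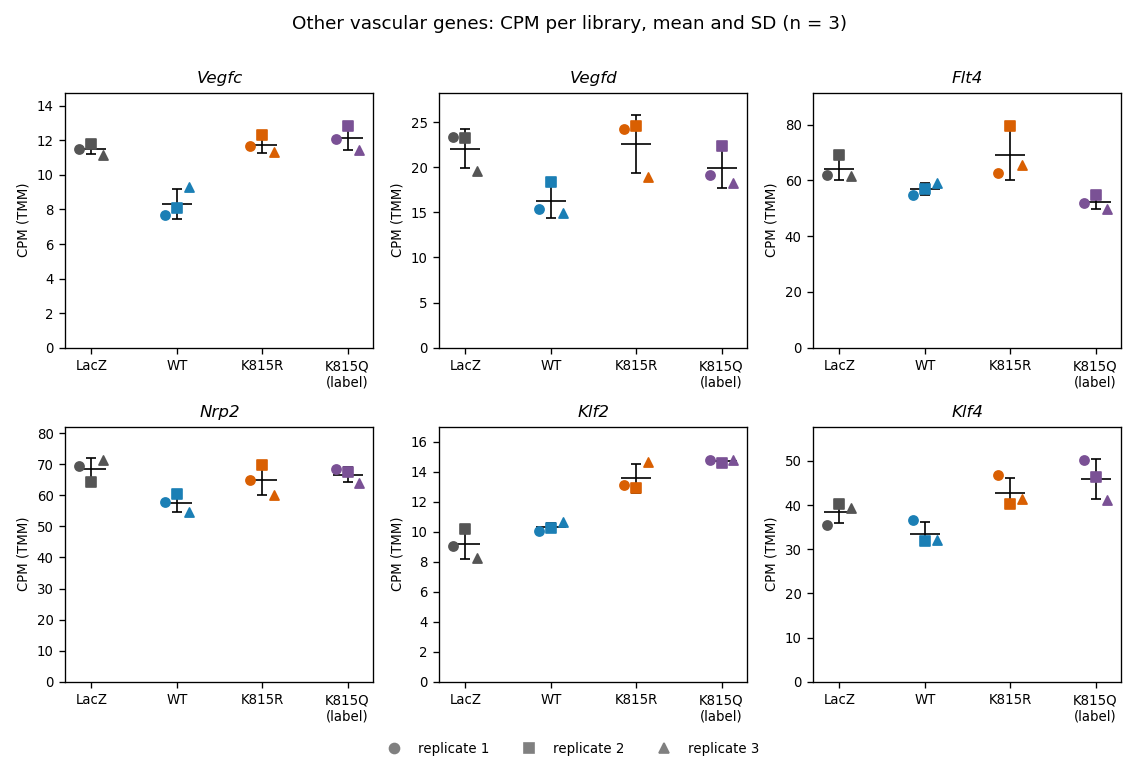
TMM-scaled CPM (y axis, from 0) of 6 vascular genes outside the marker set in each library, by group (x axis), with the group mean and SD (n = 3). Vegfc in WT (7.65 to 9.31 CPM) lies below all other libraries, and Klf2 in K815R and labelled K815Q (12.9 to 14.8 CPM) above all LacZ and WT libraries.

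The other called genes of the list were few and mostly fragile. Thbd, the thrombin receptor thrombomodulin, had log2 fold changes against LacZ of -0.43 (K815R) and -0.40 (labelled K815Q), and the leukocyte adhesion molecule Vcam1 had -0.53 and -0.47. In WT the value was -0.21 for Icam1, -0.22 for the junction protein Jam3 and 0.73 for Dok2, an adaptor that Tek recruits and that leukocytes express too. Cdh11, a cadherin of mesenchymal cells, was higher in labelled K815Q than in LacZ by 0.33, and F11r stood above WT in K815R by 0.25. Their adjusted p lay between 0.00747 for Dok2 and 0.0489 for Icam1 (edgeR), and 1 to 4 of 6 fits that left out a library kept each call.

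The summed level of 12 macrophage and leukocyte markers was 82.4 to 105 CPM in LacZ, 105 to 112 in WT, 108 to 115 in K815R, with 109 to 119 in the libraries labelled K815Q, and of the 12 genes 1, 1 and 1 were called higher than LacZ in these groups and 0, 0 and 1 lower. The called higher gene was Lyz2 each time. The gene called lower was Adgre1, at -0.54 in labelled K815Q against LacZ (edgeR adjusted p 0.0356). In WT and K815R it had -0.40 and -0.26, neither called. Above 0 were 10, 11 and 10 of the 12 genes in WT, K815R and labelled K815Q. Over all genes, higher calls covered 1.95%, 0.74% and 2.87% and lower calls 3.39%, 1.74% and 4.98% in these groups. That of 12 smooth muscle and pericyte markers was 4776 to 5374 CPM in LacZ and 4854 to 5477 in the other libraries, and that of 7 mesothelial markers 67.7 to 71.8 and 63.9 to 72.8. Of the 10 fibroblast markers, WT had 1 called higher and 1 lower than LacZ, K815R had 0 and 0, and labelled K815Q had 2 and 0. The part of these cells in the endothelial values was not tested.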

How the data were processed

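The authors deposited 1 table of raw read counts per Ensembl rat gene for 12 poly(A)-selected libraries, sequenced as single reads of 75 nt per the labels' protocols. Trimmomatic 0.39, HISAT2 2.2.1, HTSeq 0.6.1, edgeR and build Rnor_6.0 are named in the submitters' processing notes. The annotation release and the strand setting are not given in the sources used here, so genes that overlap others are uncertain. The 5 counters at the end of the table, 40.7% to 43.3% of all reads, were left out.

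Groups and replicate numbers came from the sample titles. Counts were scaled by TMM, filtered by filterByExpr (minimum count 10, minimum total 15), and tested with edgeR 4.0.16 (R 4.3.3) by the quasi-likelihood test in 1 robust model of 4 group means over 14063 genes. A gene was called at a Benjamini-Hochberg adjusted p under 0.05, and intervals cover 95%. Log2 CPM used a prior count of 2. Pairs of replicates differed by a chi-square of 4.78 to 9.29 per degree of freedom, more than sampling noise alone. This does not show whether they came from separate cultures or isolations. Each library was treated as 1 replicate. A floor of 3 counts limits values listed at 0. The procedure was tested on simulated data.

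The members and lists were chosen with earlier results of these data known. All members are named; of the wider list, genes called at least once at a mean of at least 1 CPM, at most 20; and the 5 genes most like the members at a mean of at least 5 CPM. The alternatives tried were scaling by RLE or by upper quartile, testing without a filter, 10 counts in every library, DESeq2 1.42.0, a replicate block, fits of only the libraries compared, and leaving out each library. Fits without the 3 libraries labelled K815Q were added after seeing the data.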

Additional observations from a re-analysis of the deposited data

How the results depend on the processing

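Of 1080 values of single markers under the alternatives, 1007 kept their direction and side of the threshold, 28 became called, 45 changed sign and 0 lost a call. Of the markers, 1 of 8 (Flt1) was called in WT against LacZ without a filter, with the replicate block, from the 6 libraries alone and without the 3 libraries labelled K815Q. In labelled K815Q against LacZ 1 (Vwf) was called without a filter, by DESeq2 and with the block, in K815R against WT 1 (Flt1) without a filter, with the block and from the 6 libraries alone, and in K815R against labelled K815Q 1 (Vwf) without a filter and by DESeq2. For any difference, 2 were called without a filter, by DESeq2 and with the block. Without the 3 libraries labelled K815Q, 1 of 24 marker results was called. The cause was not tested. Leaving out a library, the counts ran from 0 to 1 in WT against LacZ, K815R against WT and K815R against labelled K815Q, and from 0 to 2 in labelled K815Q against LacZ and for any difference.

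Over all tested genes, deviations of same-numbered libraries from their group means had an r of -0.127 to 0.122 over 18 pairs, 1 above 0.1. Of the 12 libraries, 4 lay nearest their own number. With 3 libraries in each group, these values cannot decide whether the numbers pair the samples. Among the markers, replicate 2 was the highest of its group in 23 of 32 combinations of a gene and a group. The markers moved together, so these combinations are not independent, and the count cannot decide the pairing either. With the replicate block in edgeR, 3 of 48 marker results were called in place of 0, and 15 had an unadjusted p under 0.05 in place of 7. The shares of all genes under the block and the other alternatives are not given here. These counts therefore do not set the markers or the wider list apart from other genes. Tek in K815R against WT was then -0.000759.

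Of the wider list, testing without a filter gave 10, 9 and 14 calls in WT, K815R and labelled K815Q against LacZ (6, 4 and 7 in the main analysis). It gave 9 in labelled K815Q against WT (5), 3 between K815R and labelled K815Q (1) and 24 for any difference. The block gave 11 in labelled K815Q against LacZ and 3 between K815R and labelled K815Q, and DESeq2 gave 2 in the latter comparison. Leaving out a library gave 2 to 6, 2 to 5 and 2 to 13 against LacZ. It gave 1 to 8 and 3 to 6 against WT for K815R and labelled K815Q, and 0 to 6 between K815R and labelled K815Q. Of 2025 values of its named genes, 1844 kept their direction and side of the threshold, 130 lost a call, 34 gained one and 17 changed sign. With group means taken out, Dll4 was again the gene most like the markers (r = 0.968).

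With a library left out, the values that changed sign in at least 1 fit were small, and each is given by its lowest and highest log2 fold change. In WT against LacZ these were Cdh5 -0.151 to 0.0959, Kdr -0.0615 to 0.102, Emcn -0.0936 to 0.354, Tie1 -0.0862 to 0.188, Egfl7 -0.174 to 0.0373 and Cdh11 -0.112 to 0.0562. In K815R against LacZ these were Tek -0.0225 to 0.204, Flt1 -0.05 to 0.0564, Vwf -0.0386 to 0.139, Egfl7 -0.109 to 0.0836, Vegfc -0.000908 to 0.0631, Flt4 -0.00164 to 0.177 and Vegfd -0.0459 to 0.147. In labelled K815Q against LacZ these were Tek -0.000972 to 0.1, Emcn -0.126 to 0.148, Egfl7 -0.16 to 0.0323 and F11r -0.0692 to 0.00192. In K815R against WT these were Cdh5 -0.0111 to 0.236, Tek -0.0923 to 0.137, Kdr -0.00691 to 0.156, Emcn -0.201 to 0.247, Tie1 -0.11 to 0.165 and Egfl7 -0.0276 to 0.184. In labelled K815Q against WT these were Tek -0.0709 to 0.0304, Flt1 -0.0341 to 0.132, Emcn -0.33 to 0.119, Egfl7 -0.0846 to 0.132, Thbd -0.162 to 0.032 and Icam1 -0.0134 to 0.066. Between K815R and labelled K815Q these were Tek -0.0763 to 0.15, Egfl7 -0.00575 to 0.139, Thbd -0.146 to 0.0416, Nrp2 -0.0932 to 0.0149, Vcam1 -0.138 to 0.0842 and Jam3 -0.0535 to 0.0354.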
